A study of Mus musculus with 9 samples.

Results

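The genes described here run the cell division cycle: cyclins and the cyclin-dependent kinases (CDKs) they activate, the proteins that load and move the replication fork, and the kinases, kinetochore proteins and ubiquitin enzymes of mitosis. Members were taken from the deposited expression table by symbol alone, as genes beginning with Cdc or Cdk plus a digit (Cdc42 and the genes named after it left out), Cdca, Ccna, Ccnb, Ccnd, Ccne, Mcm plus a digit, Cenp, Aurk, Plk plus a digit or Bub, together with 11 named genes such as Top2a, Ube2c, Birc5 and Pcna. The table held 85 of them among 10716 genes. The mouse C2C12 myoblast line, an established line that fuses into multinucleated myotubes when made to differentiate, supplied all RNA. Myotubes received dexamethasone at 50 µM with THSG at 10 µM, dexamethasone at 50 µM alone, or vehicle, for 24 h, with 3 RNA-seq libraries per group. Dexamethasone is a synthetic glucocorticoid that sets off wasting of muscle cells, THSG is named by the labels only through its abbreviation, and no group had THSG without dexamethasone. The labels do not say whether the libraries of a group came from separate cultures, so p-values measure only the spread between these libraries.

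As background, passage through G1 depends on D-type cyclins with Cdk4 or Cdk6, which phosphorylate the retinoblastoma protein and release E2F factors that switch on genes of DNA synthesis. Mitosis follows when Cdk1 with cyclin A or B becomes active, and it ends when the anaphase-promoting complex (APC/C), a ubiquitin ligase, marks the cyclins for destruction. Myotube nuclei leave the cycle for good, but a C2C12 culture also keeps mononucleated cells that can divide. In bulk RNA, fewer dividing cells and less RNA per dividing cell cannot be told apart.

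Values are taken to be FPKM, a level of fragments scaled to gene length and to the library's total. Every listed gene stood above 1 FPKM in each of the 9 libraries. Of 121 protein-coding genes that the symbol rule would take from the mouse annotation, 84 were in the table, and the 85th member, Cdk2ap1rt, carries another symbol in that annotation. Not listed were 37 genes, among them Mki67, Aurka, Aurkb, Plk1, Bub1, Cdc6 and Cenpa, so several textbook marks of mitosis have no value here, and a gene lowered to under 1 FPKM by treatment could not appear. Every member lay above this limit in all 9 libraries, 18 had at least 1 library under 2 FPKM, and 27 averaged under 5 FPKM. The listed FPKM summed to between 400218 and 422379 per library. Depth is unknown, since no read counts come with these values, and no counting error can be given. All 9 myotube markers looked for were listed, Myog at 397 ± 17 FPKM with dexamethasone plus THSG, 392 ± 7.4 with dexamethasone and 392 ± 12 with vehicle (SD, n = 3 each), and none of 6 leukocyte and endothelial markers was listed.

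Promoters are shown first as background, because the genes of late G2 and mitosis are known to share promoter elements. Whether these elements have a part in the changes described below was not tested. The windows run from 250 bases before to 50 bases after a gene's start and come from RefSeq on mouse build GRCm38.p6, an earlier build than the authors' GRCm39. They matched 73 of the 85 members, with 82 windows. Capitals mark the CHR element (TTTGAA or TTCGAA), the CCAAT box (CCAAT) and E2F motifs (TTTGGCGC, TTTCGCGC, TTTCCCGC or TTTGCCGC), each searched on both strands, with overlaps allowed. The set below shows only windows with a match and does not represent all members. It holds Cdc20, Top2a, Ube2c, Cdk1 and Cks1b, with CHR and CCAAT matches, and Mcm5, with E2F and CCAAT matches. Cdk1 also has an E2F match. The last is Rrm2, a member that rose, with a CCAAT match only.
Cdc20: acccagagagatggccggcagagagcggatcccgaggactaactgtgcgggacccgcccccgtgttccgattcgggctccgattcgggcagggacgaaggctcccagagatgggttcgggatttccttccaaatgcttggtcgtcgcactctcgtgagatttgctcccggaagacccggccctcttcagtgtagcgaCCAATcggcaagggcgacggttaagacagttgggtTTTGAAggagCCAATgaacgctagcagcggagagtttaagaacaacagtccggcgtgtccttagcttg
Top2a: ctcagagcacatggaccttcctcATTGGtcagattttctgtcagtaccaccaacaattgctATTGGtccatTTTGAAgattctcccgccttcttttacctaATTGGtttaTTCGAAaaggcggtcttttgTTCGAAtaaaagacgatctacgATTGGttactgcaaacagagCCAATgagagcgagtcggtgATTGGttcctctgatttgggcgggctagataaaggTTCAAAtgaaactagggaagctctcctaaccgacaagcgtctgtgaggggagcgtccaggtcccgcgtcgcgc
Ube2c: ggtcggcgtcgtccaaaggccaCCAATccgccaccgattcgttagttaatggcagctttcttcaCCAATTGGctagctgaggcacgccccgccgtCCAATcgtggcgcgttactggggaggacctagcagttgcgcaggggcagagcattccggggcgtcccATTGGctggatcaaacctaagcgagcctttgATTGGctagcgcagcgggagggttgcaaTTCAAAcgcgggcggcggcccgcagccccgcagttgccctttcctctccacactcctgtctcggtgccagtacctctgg
Cdk1: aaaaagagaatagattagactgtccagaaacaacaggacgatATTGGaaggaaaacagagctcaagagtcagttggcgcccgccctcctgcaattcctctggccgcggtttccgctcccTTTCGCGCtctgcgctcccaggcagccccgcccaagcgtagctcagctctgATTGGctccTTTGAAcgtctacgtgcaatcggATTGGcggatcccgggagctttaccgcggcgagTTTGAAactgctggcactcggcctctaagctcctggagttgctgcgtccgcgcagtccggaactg
Cks1b: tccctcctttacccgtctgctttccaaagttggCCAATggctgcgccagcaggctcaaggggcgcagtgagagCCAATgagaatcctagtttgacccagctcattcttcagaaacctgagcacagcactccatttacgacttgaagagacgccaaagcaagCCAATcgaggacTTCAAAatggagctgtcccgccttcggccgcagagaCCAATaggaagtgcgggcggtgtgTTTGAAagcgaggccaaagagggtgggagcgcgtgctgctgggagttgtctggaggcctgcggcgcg
Mcm5: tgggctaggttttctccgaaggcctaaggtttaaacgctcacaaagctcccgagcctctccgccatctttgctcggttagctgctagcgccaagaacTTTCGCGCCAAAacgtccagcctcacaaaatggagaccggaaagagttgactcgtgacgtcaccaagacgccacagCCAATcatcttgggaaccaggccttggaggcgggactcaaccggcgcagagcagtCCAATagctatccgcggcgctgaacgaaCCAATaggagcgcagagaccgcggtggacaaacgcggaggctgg
Rrm2: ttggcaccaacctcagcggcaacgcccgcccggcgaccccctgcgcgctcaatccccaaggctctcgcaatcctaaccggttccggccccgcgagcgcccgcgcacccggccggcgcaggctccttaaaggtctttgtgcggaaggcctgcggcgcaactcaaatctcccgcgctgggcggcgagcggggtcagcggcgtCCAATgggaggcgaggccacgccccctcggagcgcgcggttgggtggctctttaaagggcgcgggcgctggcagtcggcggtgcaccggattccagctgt

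The windows above span chr4:118437294-118437593 on the minus strand for Cdc20, chr11:99024140-99024439 on the minus strand for Top2a, chr2:164769679-164769978 on the plus strand for Ube2c, chr10:69352863-69353162 on the minus strand for Cdk1, chr3:89418242-89418541 on the minus strand for Cks1b, chr8:75109259-75109558 on the plus strand for Mcm5 and chr12:24708004-24708303 on the plus strand for Rrm2. A CHR match was found in 25.6% of member windows and in 19.2% of all 32851 promoter windows, a CCAAT box in 56.1% against 37.4%, and an E2F motif in 12.2% against 2.26%. All windows come from 27025 genes, including those that the expression table does not list, and shares among listed genes were not computed. Both a CHR and a CCAAT match stood in 4 of 6 windows of the mitotic entry genes, and in 7.52% of all windows. Both were found in 7 of 12 windows of the members that fell by at least 2-fold with dexamethasone, and in 10 of 70 windows of the remaining members. Of the 15 members with such falls, Ccnd1, Ccna2 and Tpx2 had no window, and the Birc5 window held none of the motifs. Ccnb1 had 2 CCAAT boxes and Cks2 had 4, and neither had a CHR match. Mcm5 had 2 E2F matches that overlap each other, from base -153 to base -142 before its start. E2F matches were found in 4 of 11 windows of the replication genes. These are matches of letters in a fixed window, described without a test, and the split at 2-fold uses the fold changes of these same data.

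Dexamethasone was compared with vehicle to see what the glucocorticoid did to these genes. Most members that changed were lower, and the largest falls, in order, were those of Ccnb1, Top2a, Cdc20, Cks2 and Ccnb2, genes of mitosis. Of 85 members, 36 were lower and 5 higher (limma on log2(FPKM + 0.1), Benjamini-Hochberg adjusted p under 0.05 over all genes). Among all 10716 genes, 20.9% were lower and 12.7% higher by the same rule. Higher genes made up 37.8% of all called genes, a share that median-ratio scaling moved to 49.6%, quantile normalization to 50.5% and correction for GC content and length to 51.9%. The members' median log2 fold change was -0.22, where that of all genes was -0.05. Libraries of the 2 groups did not overlap in 51 of 85 members, and in 45.9% of all genes. In 45 members all dexamethasone libraries lay below all vehicle libraries, as they did in 27.9% of all genes. Falls of at least 2-fold were found for 15 members, all of them core genes of the cycle. Their mean levels lay between 1.5 and 7.84 FPKM with dexamethasone and between 4.11 and 19 FPKM with vehicle. The share of all genes with falls of at least 2-fold was not computed. Of the 36 lower members, 14 averaged under 5 FPKM, and without such genes 22 members were lower. The count of higher members was 1 without vehicle replicate 1, 2 without vehicle replicate 2 or dexamethasone replicate 2, and 3 without dexamethasone replicate 1.

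The 85 members were sorted by role into 9 groups, 6 of them the division machinery, with 51 genes, and 3 made of the remaining members, with 34. Those 3 groups are not free of genes named for cell division, such as Cdca4 and Cdca7l. The groups were chosen with earlier results of these data known. In the division machinery 28 genes were lower and 2 higher, with a median log2 fold change of -0.39. In the other groups 8 were lower and 3 higher, with a median of -0.11. Over all genes 20.9% were lower and 12.7% higher, with a median of -0.05.

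**Figure D1:**
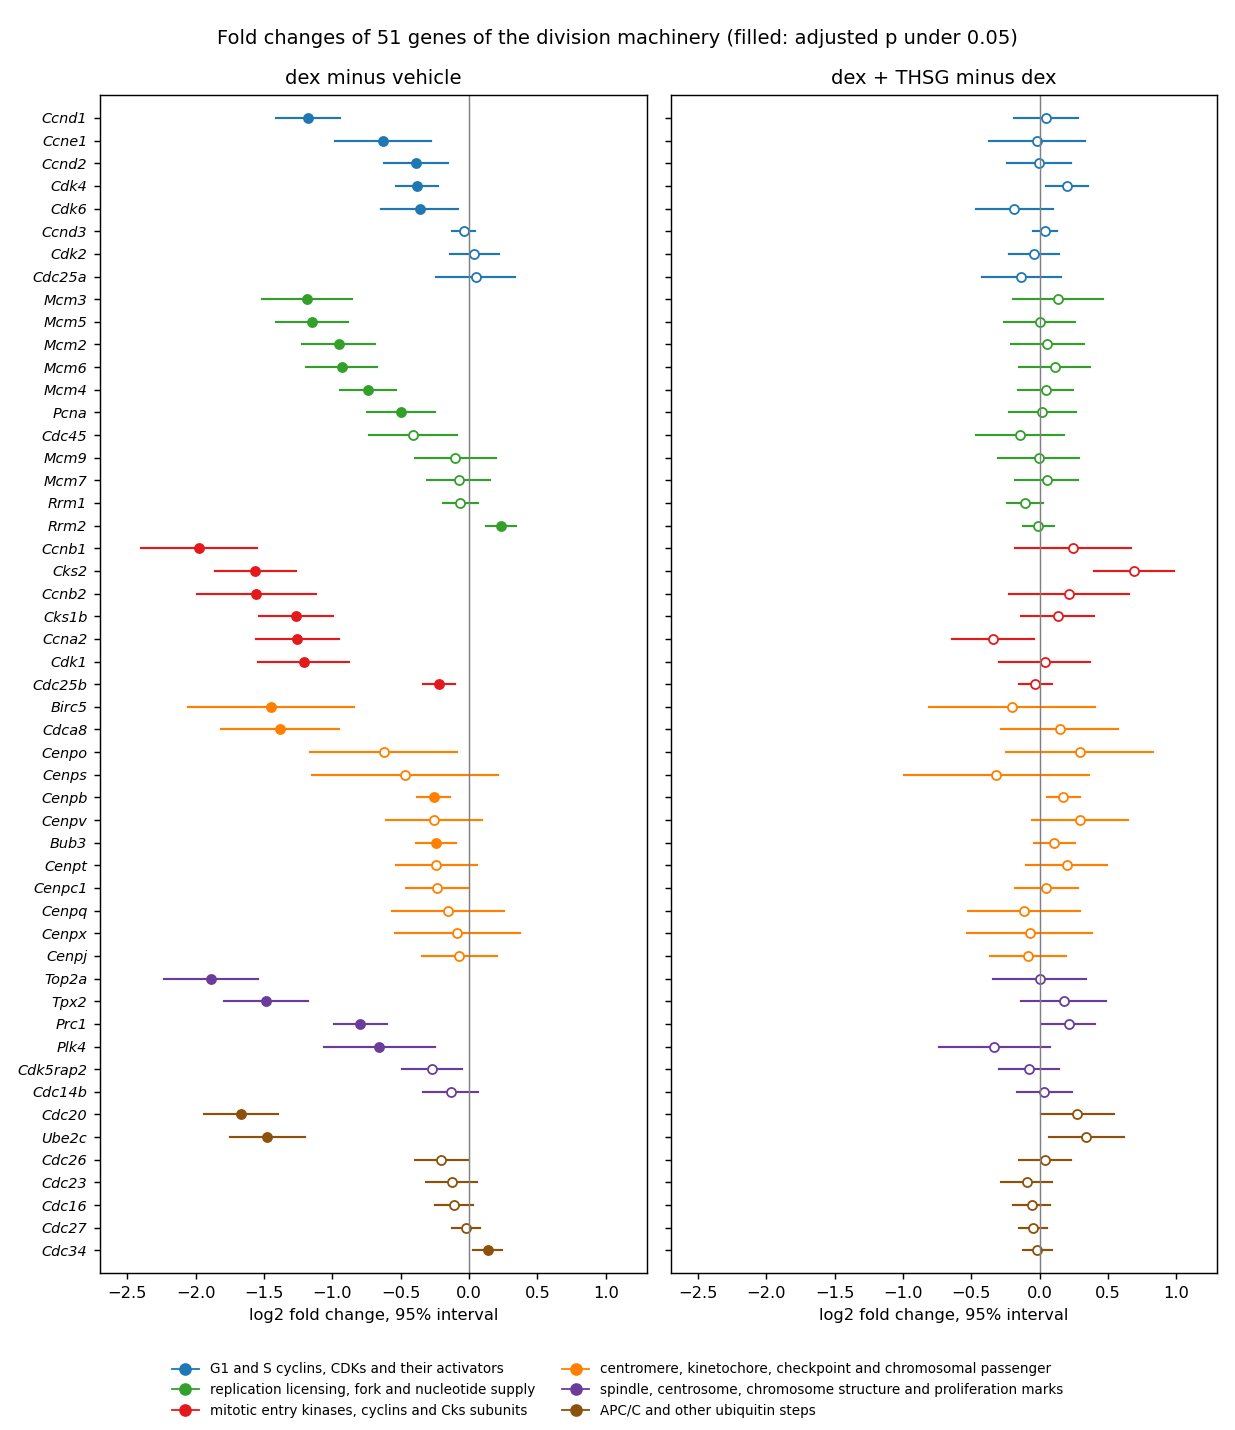
Log2 fold changes with 95% intervals of the 51 genes of the division machinery, for dexamethasone against vehicle (left) and dexamethasone plus THSG against dexamethasone (right), ordered by role; filled points passed an adjusted p of 0.05. On the left 28 filled points lie below 0 and 2 above it, and on the right no point is filled.

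Among the cyclins and kinases of G1 and their activators, 5 of 8 genes were lower and 0 higher, and 3 were lower when dexamethasone replicate 1 was left out. Ccnd1, the D-type cyclin that responds most directly to growth factors, stood at 3.72, 4.81 and 4.29 FPKM with dexamethasone plus THSG, 3.87, 4.26 and 4.21 FPKM with dexamethasone, and 9.34, 10.1 and 8.88 FPKM with vehicle. All 6 libraries with dexamethasone lay below all vehicle libraries, and the log2 fold change of dexamethasone against vehicle was -1.18 (SE 0.11, limma adjusted p = 5.34e-06). Ccnd2, another D-type cyclin, measured 3.51, 3.88 and 3.26 FPKM with dexamethasone plus THSG, 3.26, 3.53 and 3.9 FPKM with dexamethasone, and 4.68, 4.55 and 4.83 FPKM with vehicle (log2 fold change -0.39, limma adjusted p = 0.0152). That call was lost with quantile normalization and without dexamethasone replicate 1. Ccnd3, the D-type cyclin that accumulates in differentiating muscle, was by far the most abundant of the 3, at 167, 177 and 175 FPKM with dexamethasone plus THSG, 166, 171 and 168 FPKM with dexamethasone, and 172, 172 and 176 FPKM with vehicle. Its log2 fold change for dexamethasone was -0.04 with a 95% interval from -0.13 to 0.04, and its sign turned with median-ratio scaling. Ccnd1 thus fell by over 2-fold, Ccnd2 by less, and Ccnd3 was not called.

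Their partner kinase Cdk4 fell to 62.3, 61.1 and 63.8 FPKM with dexamethasone, against 82.4, 79.2 and 82.4 FPKM with vehicle (log2 fold change -0.38, SE 0.07, limma adjusted p = 0.00139). With dexamethasone plus THSG it measured 76.3, 62.5 and 77.1 FPKM, with replicate 2 at the dexamethasone level and the others above it. Cdk6, the other G1 kinase, averaged 4.89 ± 0.17 FPKM with dexamethasone and 6.33 ± 0.58 FPKM with vehicle (log2 fold change -0.36, limma adjusted p = 0.0486), a call lost under 10 of 20 alternatives. Ccne1, cyclin E1, which drives entry into S phase with Cdk2, measured 1.49, 1.98 and 2.19 FPKM with dexamethasone and 2.99, 2.83 and 3 FPKM with vehicle, and the groups did not overlap (log2 fold change -0.63, limma adjusted p = 0.0101). Cdk2 itself and the phosphatase gene Cdc25a, which activates it, were not called, with log2 fold changes of 0.04 (95% interval -0.14 to 0.22) and 0.05 (-0.24 to 0.34).

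**Figure D2:**
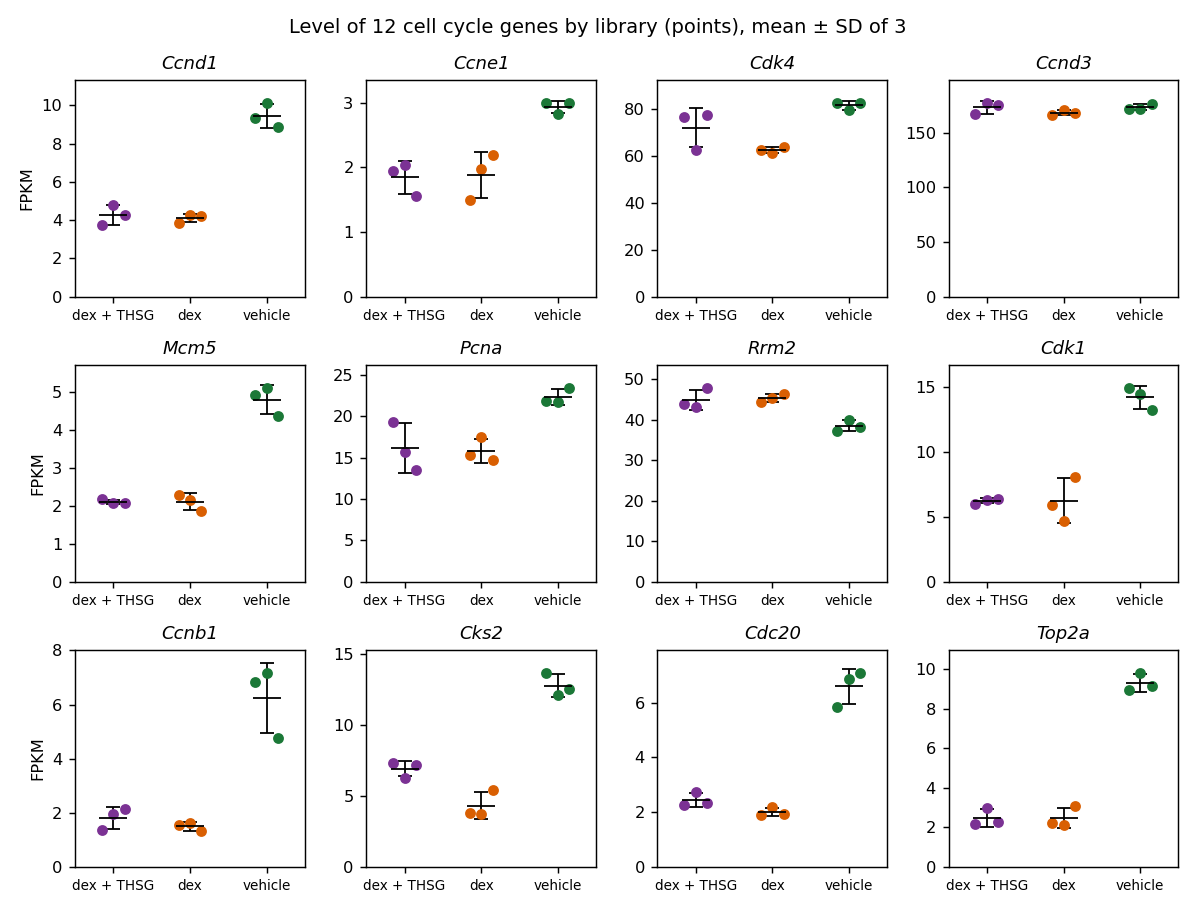
FPKM of 12 members in each library (points), with the mean and SD of 3 libraries, for dexamethasone plus THSG, dexamethasone and vehicle from left to right. All but Ccnd3 and Rrm2 lie lower in the 6 libraries with dexamethasone than in any vehicle library, Rrm2 lies higher in them, and Ccnd3 overlaps between dexamethasone plus THSG and vehicle.

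Of 11 genes of replication licensing, the fork and nucleotide supply, 6 were lower and 1 higher. The Mcm2 to Mcm7 proteins form the ring-shaped helicase that opens DNA, and 5 of these 6 subunits were lower, with log2 fold changes from -1.19 (Mcm3) to -0.74 (Mcm4). Mcm5 stood at 2.17, 2.07 and 2.07 FPKM under dexamethasone plus THSG, 2.29, 2.16 and 1.87 FPKM under dexamethasone, and 4.93, 5.1 and 4.37 FPKM under vehicle (log2 fold change -1.15, SE 0.12, limma adjusted p = 1.66e-05). Mcm2 measured 4.38, 3.69 and 4.23 FPKM with dexamethasone plus THSG, 3.69, 4.76 and 3.46 FPKM with dexamethasone, and 7.82, 7.56 and 7.76 FPKM with vehicle (log2 fold change -0.95, limma adjusted p = 9.2e-05). The vehicle libraries of both genes were all higher than every library with dexamethasone. The exception was Mcm7, the subunit with the highest level in dexamethasone-treated cells, at 11.8 ± 0.72 FPKM with dexamethasone and 12.4 ± 0.63 FPKM with vehicle (log2 fold change -0.08, 95% interval -0.30 to 0.15). Mcm9, a helicase relative that acts in DNA repair, was not called (-0.10, -0.40 to 0.20).

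At the fork, Pcna, the sliding clamp that holds the polymerase on DNA, measured 19.4, 15.7 and 13.5 FPKM with dexamethasone plus THSG, 15.3, 17.5 and 14.7 FPKM with dexamethasone, and 21.8, 21.7 and 23.4 FPKM with vehicle (log2 fold change -0.50, SE 0.11, limma adjusted p = 0.00523). Cdc45, a partner of the Mcm helicase, missed the threshold at 2.56 ± 0.36 FPKM with dexamethasone and 3.41 ± 0.35 FPKM with vehicle (log2 fold change -0.41, limma adjusted p = 0.0515). The subunits of ribonucleotide reductase, the enzyme that makes deoxyribonucleotides, were not called lower. Rrm2, its small subunit, stood at 43.9, 43.2 and 47.8 FPKM with dexamethasone plus THSG, 44.4, 45.3 and 46.3 FPKM with dexamethasone, and 37.3, 40.1 and 38.3 FPKM with vehicle. It was higher in all 6 libraries with dexamethasone than in any vehicle library (log2 fold change 0.23, SE 0.051, limma adjusted p = 0.00442), and it was the 1 higher member whose call held under all 20 alternatives. Rrm1, the large subunit, averaged 25.5 ± 1.7 FPKM with dexamethasone and 26.6 ± 0.88 FPKM with vehicle and was not called (log2 fold change -0.06, 95% interval -0.19 to 0.07).

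All 7 listed genes of mitotic entry were lower, with a median log2 fold change of -1.27. Ccnb1, cyclin B1, which activates Cdk1 at the start of mitosis, had the largest fall of any member, with 1.35, 1.96 and 2.12 FPKM under dexamethasone plus THSG, 1.55, 1.63 and 1.31 FPKM under dexamethasone, and 6.82, 7.16 and 4.77 FPKM under vehicle (log2 fold change -1.97, SE 0.19, limma adjusted p = 1.05e-05). Ccnb2, cyclin B2, went with it at 1.9 ± 0.12 FPKM with dexamethasone and 5.84 ± 1.1 FPKM with vehicle (log2 fold change -1.56, limma adjusted p = 9.15e-05). Ccna2, cyclin A2, which serves both S phase and mitosis, measured 2.4, 2.06 and 2.84 FPKM with dexamethasone plus THSG, 2.58, 3.43 and 3.32 FPKM with dexamethasone, and 7.51, 7.72 and 7.31 FPKM with vehicle (log2 fold change -1.26, limma adjusted p = 2.73e-05). In all 3 cyclin genes the vehicle libraries stood apart from the 6 others.

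Cdk1, the kinase of mitosis, measured 6.03, 6.29 and 6.41 FPKM with dexamethasone plus THSG, 5.91, 4.68 and 8.11 FPKM with dexamethasone, and 14.9, 14.5 and 13.2 FPKM with vehicle. Its dexamethasone libraries were the most spread, with replicate 3 highest, yet all lay below vehicle (log2 fold change -1.21, SE 0.15, limma adjusted p = 8.23e-05). The small Cks proteins bind CDKs and steer them to substrates already phosphorylated. Cks1b measured 9.87, 7.75 and 8.18 FPKM with dexamethasone plus THSG, 7, 7.58 and 8.94 FPKM with dexamethasone, and 17.2, 17.9 and 21.9 FPKM with vehicle (log2 fold change -1.27, limma adjusted p = 9.32e-06). Cks2 measured 7.31, 6.3 and 7.22 FPKM with dexamethasone plus THSG, 3.83, 3.7 and 5.46 FPKM with dexamethasone, and 13.7, 12.2 and 12.6 FPKM with vehicle (log2 fold change -1.56, SE 0.13, limma adjusted p = 3.51e-06). For both, vehicle was highest, and for Cks2 the 3 groups did not overlap. Its difference between the treated groups was not called (limma adjusted p = 0.227). Cdc25b, a phosphatase gene that switches Cdk1 on, fell less (log2 fold change -0.22, limma adjusted p = 0.00801), and lost its call once GC content and gene length were corrected for.

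Of 12 centromere, kinetochore and checkpoint genes, 4 were lower and 0 higher. The chromosomal passenger complex, which corrects faulty attachments of chromosomes to the spindle, was represented by Birc5 (survivin) and Cdca8 (borealin). Birc5 measured 1.6, 2.88 and 2.74 FPKM with dexamethasone plus THSG, 2.4, 1.95 and 4.22 FPKM with dexamethasone, and 8.88, 7.93 and 6.1 FPKM with vehicle (log2 fold change -1.45, SE 0.28, limma adjusted p = 0.00179). Cdca8 measured 2.21, 1.27 and 1.67 FPKM with dexamethasone plus THSG, 1.27, 1.47 and 1.83 FPKM with dexamethasone, and 4.25, 4.46 and 3.62 FPKM with vehicle (log2 fold change -1.38, limma adjusted p = 0.000205). Both were lower in every library with dexamethasone, at levels near the limit of the table. Cenpb, which binds centromeric satellite DNA, and the checkpoint gene Bub3 fell by far less, with log2 fold changes of -0.26 and -0.24 (limma adjusted p = 0.00341 and 0.017). The Bub3 call was lost with median-ratio scaling, without dexamethasone replicate 2 or 3, and with the replicate block and GC and length correction together. The other 8, all named Cenp, were not called, with log2 fold changes between -0.63 (Cenpo) and -0.07 (Cenpj). Of these, Cenpj is known as a protein of centrioles, and Cenpx and Cenps also act in DNA repair.

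Of 6 genes of the spindle, centrosome and chromosome structure, 4 were lower and 0 higher. Top2a, the topoisomerase that untangles sister chromatids, measured 2.16, 2.97 and 2.26 FPKM with dexamethasone plus THSG, 2.2, 2.14 and 3.07 FPKM with dexamethasone, and 8.94, 9.8 and 9.15 FPKM with vehicle (log2 fold change -1.89, SE 0.16, limma adjusted p = 2.5e-06). Tpx2, which activates Aurora A on the spindle, measured 2.03, 2.27 and 2.25 FPKM with dexamethasone plus THSG, 1.89, 1.62 and 2.32 FPKM with dexamethasone, and 5.76, 5.97 and 5 FPKM with vehicle (log2 fold change -1.49, limma adjusted p = 8.04e-06). Vehicle libraries were higher by a wide margin in both. Prc1, which bundles microtubules between separating chromosomes, had a log2 fold change of -0.80 (limma adjusted p = 3.21e-05). Plk4, the kinase that starts centriole duplication, had one of -0.66 (limma adjusted p = 0.017), a call lost without vehicle replicate 3 or dexamethasone replicate 2. The centrosome gene Cdk5rap2 and the phosphatase gene Cdc14b were not called (-0.27 and -0.13).

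Of 7 genes of the APC/C and other ubiquitin steps, 2 were lower and 1 higher. Cdc20, the activator that turns the APC/C on at anaphase, measured 2.26, 2.75 and 2.34 FPKM with dexamethasone plus THSG, 1.9, 2.18 and 1.93 FPKM with dexamethasone, and 5.85, 6.86 and 7.08 FPKM with vehicle (log2 fold change -1.67, SE 0.12, limma adjusted p = 9.61e-07). Ube2c, the enzyme that feeds ubiquitin to the APC/C, measured 4.19, 4.41 and 4.93 FPKM with dexamethasone plus THSG, 3.81, 3.4 and 3.4 FPKM with dexamethasone, and 12, 9.83 and 8.48 FPKM with vehicle (log2 fold change -1.48, limma adjusted p = 3.27e-06). In both genes dexamethasone alone was lowest, dexamethasone plus THSG next and vehicle highest, with no overlap between the 3 groups. Between the treated groups neither difference was called (smallest limma adjusted p of the 7 genes 0.626). Libraries with THSG lay above all those with dexamethasone alone in 8.41% of all genes. The APC/C subunits Cdc16, Cdc23, Cdc26 and Cdc27 had log2 fold changes between -0.20 and -0.02, and none was called. Cdc34, a ubiquitin enzyme of the SCF ligases, was higher at 52.3, 52.8 and 49.3 FPKM with dexamethasone against 47.9, 46.4 and 46.2 FPKM with vehicle (log2 fold change 0.14, limma adjusted p = 0.0458), and 9 of 20 alternatives ended that call.

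**Figure D3:**
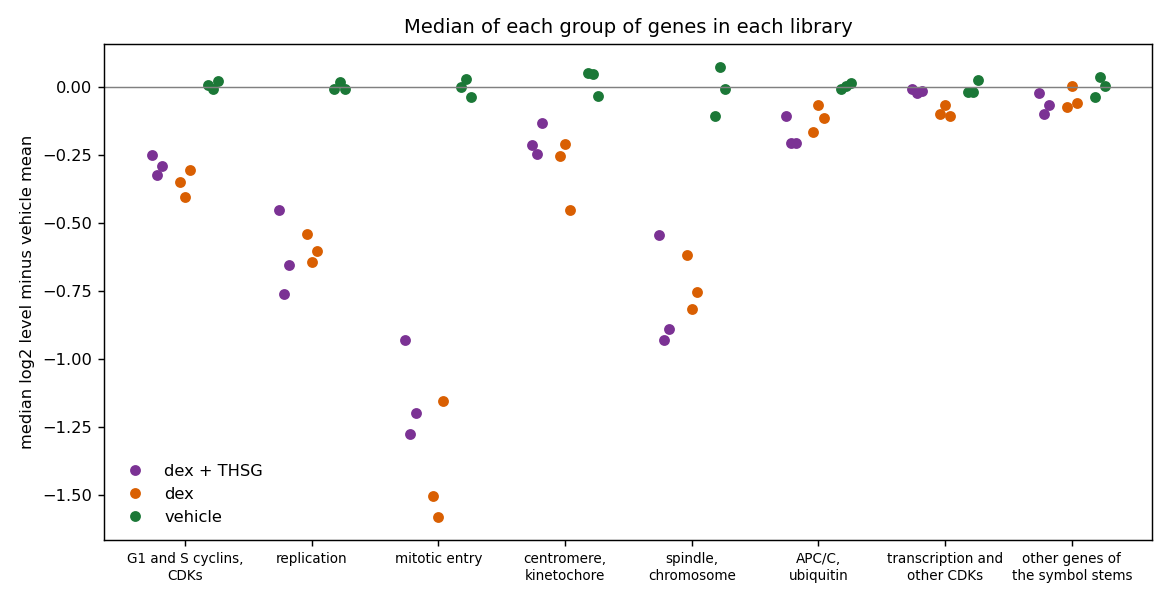
Median over the genes of each group of the log2 level minus its vehicle mean, 1 point per library, for 8 of the 9 role groups. The mitotic entry group lies lowest, between -1.28 and -0.93 with dexamethasone plus THSG and between -1.58 and -1.15 with dexamethasone, while the transcription CDKs stay within 0.11 of 0.

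Of 15 genes for CDKs of transcription and other processes, the Cdk5 activator Cdk5r1 among them, 1 was lower and 0 higher. It was Cdk14, a kinase linked to Wnt signalling, at 11.2, 11.8 and 11.1 FPKM with dexamethasone plus THSG, 9.02, 11 and 11.3 FPKM with dexamethasone, and 16.1, 15.8 and 16.4 FPKM with vehicle (log2 fold change -0.63, SE 0.083, limma adjusted p = 0.000124). The kinases that act on RNA polymerase II, Cdk7, Cdk9, Cdk12 and Cdk13, had log2 fold changes between -0.19 and -0.03, none called. Of the stress-linked polo kinases, Plk2 fell to 32.5, 32.9 and 34 FPKM with dexamethasone, against 40.3, 44.6 and 39.8 FPKM with vehicle (log2 fold change -0.33, limma adjusted p = 0.000657), and Plk3 was not called (-0.20, limma adjusted p = 0.113). Among 17 other genes that share a symbol stem 6 were lower and 3 higher, and 5 in all were called without vehicle replicate 1 or 2 or dexamethasone replicate 3. The higher ones were Cdc73 of the Paf1 transcription complex, Cdc40 of the spliceosome and the chaperone relative Cdc37l1, with log2 fold changes of 0.29, 0.19 and 0.23. All 3 lost their calls without vehicle replicate 1, and only Rrm2 remained among higher members there. Cdc73 also lost its call without vehicle replicate 2 or dexamethasone replicate 3, and once GC content and gene length were corrected for, where its log2 fold change was 0.14 (limma adjusted p = 0.157, and 0.173 with the replicate block). Cdc40 also lost its call without vehicle replicate 2 or dexamethasone replicate 1 or 2, and Cdc37l1 without dexamethasone replicate 2. Of the 6 lower genes Cdca7l fell most (-0.66), and Cdca4 and Cdc37 had log2 fold changes of -0.36 and -0.21. Their calls held under 16 of 19, 11 of 20 and 14 of 20 alternatives. Aurkaip1 was lower too, with a call lost under the GC and length correction. Cdk2ap1 and Cdk2ap1rt, lower by 0.20 and 0.28 on the log2 scale, are near-identical copies that may share reads, so their split is uncertain. Both calls were lost once GC content and gene length were corrected for.

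Genes of the same pathways outside the members, taken from lists, moved in the same direction for replication and mitosis. Of all genes 20.9% were lower and 12.7% higher. The lists were chosen with earlier results of these data known. Of 45 genes of the replication machinery 35 were listed, 17 lower and 0 higher with dexamethasone, with a median log2 fold change of -0.35. Uhrf1, which takes part in the copying of DNA methylation marks, measured 1.58, 2.01 and 2.05 FPKM with dexamethasone plus THSG, 1.88, 2.17 and 1.47 FPKM with dexamethasone, and 5.26, 5.01 and 5.06 FPKM with vehicle (log2 fold change -1.44, limma adjusted p = 2.13e-05). Thymidine kinase Tk1, DNA ligase Lig1 and the dUTPase gene Dut had log2 fold changes of -1.47, -1.14 and -1.09. Only 15 of 42 genes of the spindle, kinetochore and cytokinesis were listed, 11 lower and 0 higher, with a median of -0.67. Kif20a, a motor of cytokinesis, measured 2.63, 2.43 and 2.03 FPKM with dexamethasone plus THSG, 1.75, 1.66 and 1.53 FPKM with dexamethasone, and 6.14, 6.17 and 5.61 FPKM with vehicle (log2 fold change -1.80, limma adjusted p = 5.69e-07). Anln, Tacc3 and Racgap1 had log2 fold changes of -1.61, -1.17 and -0.67.

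Of 17 genes of cohesin, condensin and chromosome structure, 16 were listed, with 8 lower and 1 higher. For this list and the next, the shares over all genes were 20.9% lower and 12.7% higher. The condensin genes Ncapd2 and Smc2 had log2 fold changes of -1.11 and -0.99, and Hmgb2, a chromatin protein of dividing cells, one of -0.91. The higher gene was the cohesin subunit Stag2 (0.29), named after its value was seen. The APC/C and SCF ligases outside the members, 18 of 19 listed, gave 1 lower gene, Ube2s (-0.41), and 1 higher, Skp1 (0.16), and 1 call in all without vehicle replicate 1 or 3 or dexamethasone replicate 3.

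Regulators of the cycle changed in both directions, as did genes of the whole table, of which 20.9% were lower and 12.7% higher. Of 20 E2F, MuvB and related transcription factors 16 were listed, with 4 lower and 2 higher. E2f2, an activator of S phase genes, measured 9.96, 9.78 and 10.6 FPKM with dexamethasone plus THSG, 9.81, 10.5 and 9.43 FPKM with dexamethasone, and 27.2, 25.6 and 28.2 FPKM with vehicle (log2 fold change -1.44, SE 0.067, limma adjusted p = 1.98e-08). E2f1, another activator, and E2f8, a repressor, had log2 fold changes of -0.78 and -0.98. Foxm1, the factor of mitotic genes, was the other lower one (-0.79), and E2f6 (0.32) was higher. Both were named after their values were seen. Tfdp2, a binding partner of E2F proteins, rose to 21.2, 20.3 and 21.3 FPKM with dexamethasone, against 10.4, 9.77 and 9.73 FPKM with vehicle, with 22.5, 18 and 19.8 FPKM under dexamethasone plus THSG (log2 fold change 1.07, limma adjusted p = 8.97e-07).

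Among CDK inhibitors and other brakes, 14 of 19 were listed, with 4 higher and 3 lower. Over all genes 12.7% were higher and 20.9% lower. Cdkn1a, which encodes the CDK inhibitor p21 that rises as myoblasts leave the cycle, was the most abundant, at 809, 791 and 812 FPKM with dexamethasone plus THSG, 798, 817 and 805 FPKM with dexamethasone, and 787, 798 and 811 FPKM with vehicle. The groups overlapped, and the log2 fold change for dexamethasone was 0.01 with a 95% interval from -0.08 to 0.11, though corrected for GC content and gene length it was 0.12 (limma adjusted p = 0.0335). Cdkn1b, which encodes the inhibitor p27, measured 28.1, 25.9 and 32.1 FPKM with dexamethasone plus THSG, 29.8, 29.2 and 30.4 FPKM with dexamethasone, and 23, 24.9 and 24.9 FPKM with vehicle (log2 fold change 0.30, limma adjusted p = 0.00803). Rb1, the retinoblastoma gene, measured 43.4, 40.8 and 42.7 FPKM with dexamethasone plus THSG, 43.5, 42.8 and 50.1 FPKM with dexamethasone, and 33.3, 33.4 and 37.2 FPKM with vehicle (log2 fold change 0.39, SE 0.067, limma adjusted p = 0.000887). Every library with dexamethasone exceeded every vehicle library for both genes. Wee1, the kinase that holds Cdk1 inactive, rose to 7.5, 8.06 and 7.51 FPKM with dexamethasone, against 5.28, 4.13 and 5.04 FPKM with vehicle (log2 fold change 0.67, limma adjusted p = 0.000258). Btg2, an antiproliferative gene, rose by 0.43 on the log2 scale. Rbl1, the retinoblastoma relative p107 and itself a known E2F target, was lower (-0.83), as were Gadd45b (-0.43) and Trp53 (-0.23), the last pair named after their values were seen.

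**Figure D4:**
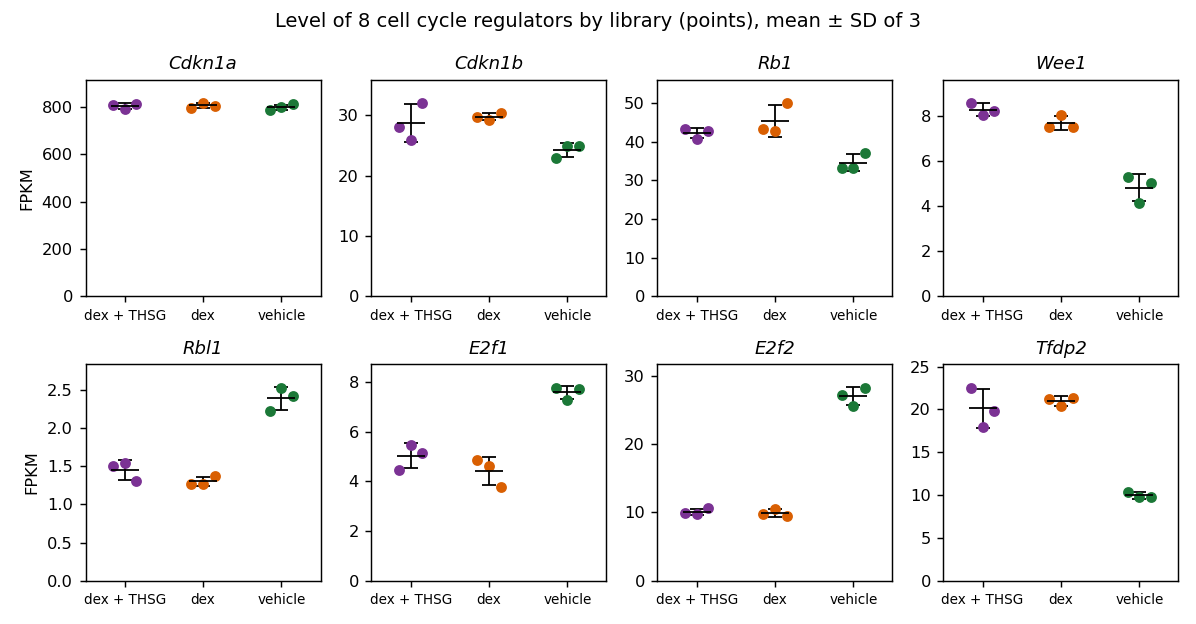
FPKM of 8 regulators of the cycle in each library (points), with the mean and SD of 3 libraries, for dexamethasone plus THSG, dexamethasone and vehicle from left to right. Cdkn1b, Rb1, Wee1 and Tfdp2 lie higher in all 6 libraries with dexamethasone than in any vehicle library, Rbl1, E2f1 and E2f2 lie lower, and Cdkn1a overlaps.

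Markers of other cell states moved beside these genes, in a comparison that called 33.6% of all genes. Of 10 markers of undifferentiated and reserve cells 9 were listed, and 4 were lower and 2 higher. The satellite cell factor Pax7 measured 3.45, 4.38 and 3.97 FPKM with dexamethasone plus THSG, 4.76, 3.49 and 3.58 FPKM with dexamethasone, and 7.05, 5.9 and 5.55 FPKM with vehicle (log2 fold change -0.64, limma adjusted p = 0.00488), and Cd34 had a log2 fold change of -1.17. Myf5, a factor of proliferating myoblasts, went the opposite way (1.05, limma adjusted p = 1.04e-06). The summed level of the list lay between 132 and 135 FPKM with dexamethasone plus THSG, between 118 and 134 FPKM with dexamethasone and between 124 and 133 FPKM with vehicle. Of 8 fibroblast markers 6 were listed, with 5 lower and Pdgfra higher, and their summed level lay between 607 and 609 FPKM with dexamethasone plus THSG, between 571 and 585 FPKM with dexamethasone and between 1037 and 1108 FPKM with vehicle. Of the 9 myotube markers 5 were higher and 0 lower, Myh1 by 0.77 and Ckm by 0.74 on the log2 scale. The part of a change in the mix of cells in the results above was not tested.

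Dexamethasone plus THSG was then compared with dexamethasone alone, which asks what THSG changed in treated myotubes. No member differed past the threshold, and no list described above had a called gene. Of 85 members 0 were called in either direction, as were 0% of all genes, and the smallest adjusted p of a member was 0.227. Before adjustment, 11 members had p under 0.05, 10 higher and 1 lower, and 7.25% of all genes did, 5.05% higher and 2.2% lower. Groups were separate in 12 members, 10 above and 2 below, and in 13.3% of all genes, 8.41% above and 4.84% below. The members' median log2 fold change was 0.03, against 0.02 for all genes, and 50 of 85 were above 0. In 71 members the 95% interval lay within 0.5 of 0 on the log2 scale. The 15 members that had fallen at least 2-fold with dexamethasone had log2 fold changes between -0.34 (Ccna2) and 0.69 (Cks2) here. The dexamethasone libraries enter both comparisons, so no relation between the fold changes of the 2 is drawn.

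Cks2 stood nearest to the threshold, with a log2 fold change of 0.69 and a 95% interval from 0.39 to 0.98 (limma adjusted p = 0.227). Its 3 libraries with THSG, given above, all exceeded the 3 with dexamethasone alone and stayed below vehicle. Under the alternatives its adjusted p ranged from 0.0383 to 0.478, and it passed in 1 of them, without dexamethasone replicate 3, the library in which it was highest among the 3. Mitochondrial genes took 14% of the listed FPKM in that library and between 10.5% and 12% in the other 8, and the part of this in the Cks2 result was not tested. Cdk5, a kinase of neurons and muscle better known outside the cycle, measured 28, 24.3 and 26 FPKM with dexamethasone plus THSG and 20.7, 22.1 and 19.9 FPKM with dexamethasone, with 22, 22.8 and 24.7 FPKM under vehicle (log2 fold change for THSG 0.32, limma adjusted p = 0.276). Cenpb (0.17), Cdk2ap2 (0.14) and Cdk4 (0.20) were the next by p, with limma adjusted p = 0.573, 0.581 and 0.594. For the largest falls the intervals of the THSG difference were -0.18 to 0.66 for Ccnb1, -0.34 to 0.34 for Top2a, -0.30 to 0.37 for Cdk1 and -0.19 to 0.28 for Ccnd1. Cdc20 (0.01 to 0.54) and Ube2c (0.07 to 0.62) had intervals above 0 but adjusted p of 0.685 and 0.626 by limma. Outside the members, Kif20a had a log2 fold change of 0.49 (limma adjusted p = 0.421).

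Against vehicle, myotubes with dexamethasone plus THSG were compared with the same vehicle libraries as above. Here 33 members were lower and 2 higher, and 29.1% of all genes were called, 17% lower and 12.1% higher. With median-ratio scaling 5 members were higher and with GC and length correction 6, and with a minimum mean of 5 FPKM 17 were lower. Higher genes made up 41.5% of all called genes here, against 50.9% with median-ratio scaling and 52.4% with GC and length correction. The median log2 fold change was -0.17 for members and -0.04 for all genes. The 15 members with falls of at least 2-fold under dexamethasone alone had means between 1.72 and 8.6 FPKM with dexamethasone plus THSG and between 4.11 and 19 FPKM with vehicle. All 15 were called lower here too, and 14 of them were at or past 2-fold. Cks2, the exception, had a log2 fold change of -0.88 with THSG present and -1.56 with dexamethasone alone, both against the same vehicle libraries. The direct difference of Cks2 between the treated groups was not called (limma adjusted p = 0.227). Top2a and Ccnb1 had the largest falls (-1.89 and -1.73). The higher genes were Rrm2 (0.22) and Cdk2ap2 (0.20). Cdk2ap2, which encodes a CDK2-associated protein, measured 82.7, 90.0 and 92.4 FPKM with dexamethasone plus THSG, 81.9, 80.9 and 77.2 FPKM with dexamethasone and 77.6, 76.4 and 75.9 FPKM with vehicle. For dexamethasone alone it was not called, with a log2 fold change of 0.06 (limma adjusted p = 0.355), but it was called higher once GC content and gene length were corrected for (0.23, limma adjusted p = 0.00229). Cdk4 was not called in this comparison (-0.18, limma adjusted p = 0.0727), and its direct difference between the treated groups was not called either.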

How the data were processed

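RNA of 9 libraries was prepared with a stranded mRNA kit, per the labels' protocols. STAR 2.7.10a, featureCounts and the GRCm39 build are named in the submitters' processing notes. The deposited table gives 10716 genes with fractional values, all above 1. The table's name calls them counts, no unit stands beside them, and the deposited values were taken as FPKM because they are not whole numbers and do not sum to a fixed total, so no count test was run and the depth is unknown. Titles gave the groups, since the number in the cell line label goes up with each sample. GENCODE vM21, on an earlier build, supplied symbols, length and GC content for 10670 identifiers, and 46 did not match.

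Tests used limma 3.58.1 (R 4.3.3) on log2(FPKM + 0.1), fitting a mean for each of the 3 groups over all 9 libraries with a variance trend on level, with Benjamini-Hochberg adjustment over all genes at a threshold of 0.05. Fold changes on this scale understate those of low genes. The fit was first tested on simulated data. Named genes were up to 4 per role group or list with the smallest p for dexamethasone against vehicle, all higher members, the 5 members with the smallest p for THSG, and a few fixed regulators. Other genes in the text, such as Cdk6, Ccnb2, Cdc25b, Mcm7, Cdc45, Rrm1, Cenpo, Myog and Pdgfra, were named after their values were seen, to account for the members of each group or the genes of a list. The members, the role groups and the lists were chosen with earlier results of these data known. Alternatives covered the pseudocount, scaling, low values, the fit, GC content and length, the replicate block and each library left out.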

Additional observations from a re-analysis of the deposited data

How the results depend on the processing

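Of 1675 values for 80 named genes under 20 alternatives, 1619 kept their direction and side of the threshold, 38 lost a call, 14 gained one and 4 changed sign. All 4 were Ccnd3 for dexamethasone against vehicle, at 0.0068 under median-ratio scaling, 0.011 after quantile normalization and 0.072 with correction for GC content and length, with or without the replicate block. A minimum mean of 5 FPKM, which tests fewer genes, left 22 lower members for dexamethasone and 17 for dexamethasone plus THSG against vehicle, medians of -0.13 and -0.091, and 3 called genes of G1, 4 of mitotic entry, 2 of the centromere, 1 of the spindle, 10 of the replication list, 3 of the mitosis list and 2 of the cohesin list. The members' median for dexamethasone was -0.17 under median-ratio scaling as under quantile normalization, and -0.14 under the GC and length correction, with or without the block. That for dexamethasone plus THSG against vehicle was -0.14, -0.14 and -0.12. The median of all genes moved too. For dexamethasone it was -0.05 in the main fit and -0.0029, 0.0037 and 0.0051 under these 3 settings. For dexamethasone plus THSG against vehicle it was -0.038, then -0.0043, -0.0031 and 0.00077. For THSG against dexamethasone the median was 0.0066 with quantile normalization. Members higher with dexamethasone plus THSG numbered 5 with median-ratio scaling and 6 with the GC and length correction. Called transcription CDKs numbered 2 with quantile normalization, with only 2 groups in the fit and with the GC and length correction, called G1 genes 3 with quantile normalization, called polo kinases 2 with no variance trend, called ligase genes outside the members 1 with no trend and 5 with the GC and length correction, and called myotube markers 8 with that correction. The cause was not tested.

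With 1 library left out at a time, members called for dexamethasone ranged between 31 and 38 lower and between 1 and 6 higher, with medians between -0.25 and -0.18. For THSG against dexamethasone 0 to 1 were higher, with medians between 0.0097 and 0.041, and for dexamethasone plus THSG against vehicle medians lay between -0.19 and -0.15. Called genes ranged between 1 and 2 for transcription CDKs, 3 and 5 for G1, 5 and 10 for the symbol stems and 1 and 3 for the ligase list. Same-numbered libraries did not deviate together (correlations between -0.0862 and 0.107). No pairing by number was seen, but these values cannot show whether such libraries were made together. With the replicate block 37 members were lower and 5 higher, against 36 and 5 without it.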
